A study of Mus musculus with 26 samples.

Results

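The genes described here encode the machinery of mitosis: the cyclins and kinases that start it, the kinetochore that couples chromosomes to microtubules, the motors that build the spindle, and the proteins that divide the cell. The set was chosen by gene symbol and holds 40 of the 55471 genes in the count table. It comprised 10 genes of the cyclin and kinase group, which includes the phosphatases and ubiquitin ligase factors that act with them, 16 kinetochore genes, 6 spindle genes, 6 cytokinesis genes, and Top2a and Mki67, which act on mitotic chromosomes and were kept as a group of their own. All 40 were found under their GENCODE M21 symbols, each in 1 row, and all 40 passed the low-count filter that left 18412 genes for testing.

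The RNA came from mouse embryonic stem cells (ESCs) of the KH2 line in 3 genotypes and was read by RNA-seq. The line called alphaKO here is labelled as an alpha knock-out of NAP1L1, a histone chaperone of the nucleosome assembly protein family, fullKO is labelled as a NAP1L1 knock-out, and WT is wild type. Cells of each genotype were harvested at days 0, 2 and 4 of differentiation with retinoic acid, so all groups share the KH2 background and, at days 2 and 4, the retinoic acid. Each group had 3 libraries, apart from fullKO at day 0 with 2, which gives 26 libraries in 9 groups. Each knockout genotype is 1 line (the design names a pair of knockout lines), so genotype and line cannot be told apart. Whether the libraries of a group came from different cultures is not stated, so the p-values measure only the spread between these libraries.

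Entry into mitosis is driven by cyclin B bound to the kinase Cdk1, which Cdc25 phosphatases switch on and which the anaphase-promoting complex switches off by marking cyclin B for destruction. Between these steps the spindle assembly checkpoint, carried by Bub1, Bub1b, Bub3, Mad2l1 and Ttk, holds anaphase until every kinetochore is attached. Most of these genes are transcribed late in the cell cycle and repressed in cells that leave it. Mouse ESCs divide quickly with a short first gap phase, and their division slows as they differentiate.

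Total counts per library ran from 13537267 to 20569706, and the 40 genes took between 0.264% and 0.895% of them. Nap1l1 stood at 621, 608 and 569 CPM (a count scaled to the size of its library, with TMM factors) in alphaKO, 397 and 401 CPM in fullKO and 1010, 997 and 1068 CPM in WT libraries at day 0, with log2 fold changes against WT of -0.77 ± 0.037 (SE) in alphaKO and -1.36 ± 0.043 in fullKO. At day 2 it had 609, 628 and 619 CPM in alphaKO, 369, 364 and 367 CPM in fullKO and 857, 862 and 856 CPM in WT libraries, and at day 4 339, 348 and 340.2 CPM in alphaKO, 238, 222 and 221 CPM in fullKO and 413, 383 and 383 CPM in WT libraries. Transcripts of the targeted gene were lower in both knockout lines on each day but not absent, and the labels do not say which part of the gene was altered. The pluripotency factor Pou5f1 (Oct4) was high at day 0 in all libraries, with 587, 590.5 and 603 CPM in alphaKO, 662 and 648 CPM in fullKO and 615, 620.5 and 611 CPM in WT, as the stem cell label says. The summed level of 8 pluripotent cell markers was higher in both knockout lines at day 0, from 5790 to 5983 CPM in alphaKO, from 6012 to 6162 CPM in fullKO and from 3101 to 3212 CPM in WT. The summed level of 10 fibroblast markers at day 0 ran from 1383 to 2144 CPM in alphaKO, from 276.6 to 416.7 CPM in fullKO and from 2573 to 3406 CPM in WT, none of the 10 being at 0. Chromosome 1 stood apart in both knockout lines, where its 1115 tested genes had a median log2 fold change against WT at day 0 of 0.41 in alphaKO and 0.27 in fullKO. Among the mitosis genes only Cenpf and Nuf2 lie on chromosome 1.

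The promoters of these genes show the sequence features known for late cell cycle genes. Such genes often carry CCAAT boxes, which the factor NF-Y binds, together with a cell cycle genes homology region with the core TTTGAA or TTTAAA. At least 1 RefSeq promoter window (GRCm38.p6, 250 bases before to 50 after the transcription start) was on hand for 33 of the 40 genes. Bub3, Ect2 and Prc1 had 2 windows each, and a gene was counted if any of its windows matched. CCAAT on either strand occurred in 26 of these 33 (78.8%), against 42.4% of 12599 tested genes with a window and 41.1% of all 27025 genes in the promoter table. TTTGAA on either strand occurred in 24 of 33 (72.7%), against 14.6% of tested genes and 20.2% of all genes. TTTAAA, which reads the same on both strands, was in 8 of 33 (24.2%), against 11.3% and 14.9%. A CCAAT and at least 1 of the 2 cores in the same window were found for 24 of 33 genes (72.7%), against 9.3% of tested genes and 12.2% of all genes. These are matches of letters and not tested binding sites. Bub1 and Cdc25b had a CCAAT and no core, Anln, Birc5 and Ndc80 had a core and no CCAAT, and Kif18a, Mad2l1, Nuf2 and Nusap1 had neither. The stretch from 150 bases before to 30 after the start is printed for 1 or 2 genes of each role. These genes were higher than WT in both knockout lines at day 4 and were picked among windows with both a CCAAT and a core. Anln, which was not higher, is printed as well. Bub1, Cdc25b, Birc5, Ndc80, Kif18a, Mad2l1, Nuf2 and Nusap1, which lack a CCAAT, a core or both, were also higher in both lines. Whether the motifs go with the knockout differences was not tested. Capitals mark CCAAT (or its reverse complement ATTGG) and the cores TTTGAA (or TTCAAA) and TTTAAA.
Ccnb1 (chr13:100786457-100786636, minus strand): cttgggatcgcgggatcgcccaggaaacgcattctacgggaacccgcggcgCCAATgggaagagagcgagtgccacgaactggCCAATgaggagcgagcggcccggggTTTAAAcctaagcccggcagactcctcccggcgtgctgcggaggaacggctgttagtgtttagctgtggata
Cdc20 (chr4:118437314-118437493, minus strand): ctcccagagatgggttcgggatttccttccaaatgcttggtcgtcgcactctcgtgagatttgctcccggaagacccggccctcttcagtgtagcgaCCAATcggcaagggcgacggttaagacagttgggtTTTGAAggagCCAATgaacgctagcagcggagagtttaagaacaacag
Ttk (chr9:83834539-83834718, plus strand): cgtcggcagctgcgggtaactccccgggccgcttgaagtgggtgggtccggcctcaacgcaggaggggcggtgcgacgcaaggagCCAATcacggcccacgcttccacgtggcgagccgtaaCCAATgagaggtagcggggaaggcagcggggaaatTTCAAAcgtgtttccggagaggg
Kif11 (chr19:37376232-37376411, plus strand): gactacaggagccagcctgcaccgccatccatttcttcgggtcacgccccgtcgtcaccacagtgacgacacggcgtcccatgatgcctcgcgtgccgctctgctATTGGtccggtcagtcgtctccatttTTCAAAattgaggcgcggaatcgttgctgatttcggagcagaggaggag
Racgap1 (chr15:99651627-99651806, minus strand): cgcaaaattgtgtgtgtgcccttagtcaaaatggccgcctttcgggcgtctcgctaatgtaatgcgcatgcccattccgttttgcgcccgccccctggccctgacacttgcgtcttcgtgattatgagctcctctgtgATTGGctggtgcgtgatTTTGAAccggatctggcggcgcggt
Top2a (chr11:99024160-99024339, minus strand): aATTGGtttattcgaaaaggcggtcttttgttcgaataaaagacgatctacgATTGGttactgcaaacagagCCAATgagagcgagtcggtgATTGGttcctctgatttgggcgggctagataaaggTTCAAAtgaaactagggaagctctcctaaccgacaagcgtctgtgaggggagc
Anln (chr9:22389177-22389356, minus strand): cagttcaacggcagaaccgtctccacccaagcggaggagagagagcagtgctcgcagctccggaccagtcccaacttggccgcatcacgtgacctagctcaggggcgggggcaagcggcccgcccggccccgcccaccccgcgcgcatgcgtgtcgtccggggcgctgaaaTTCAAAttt
In these stretches Top2a has 4 CCAAT boxes, Ccnb1, Cdc20 and Ttk have 2 each, and Kif11 and Racgap1 have 1, each upstream of the start. The Anln stretch holds 1 core just after the start and no CCAAT.

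In undifferentiated WT cells the 40 genes together stood at 9243 to 9384 CPM. Per kilobase of exon the highest was Cdc20, the activator of the anaphase-promoting complex, at 205 CPM per kb. Next came Top2a at 155, Ube2c, the ubiquitin-conjugating enzyme that works with that complex, at 114, and Plk1 at 110. The lowest were Cdc25c at 6.32, Mad2l1 at 7.26, Kif18a at 7.39 and Nuf2 at 9.37 CPM per kb. These values per length use all exons annotated for a gene, so a gene with many unused exons reads low. The plot of the summed levels shows how the set and 2 marker groups moved over the days in each genotype.

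**Figure D1:**
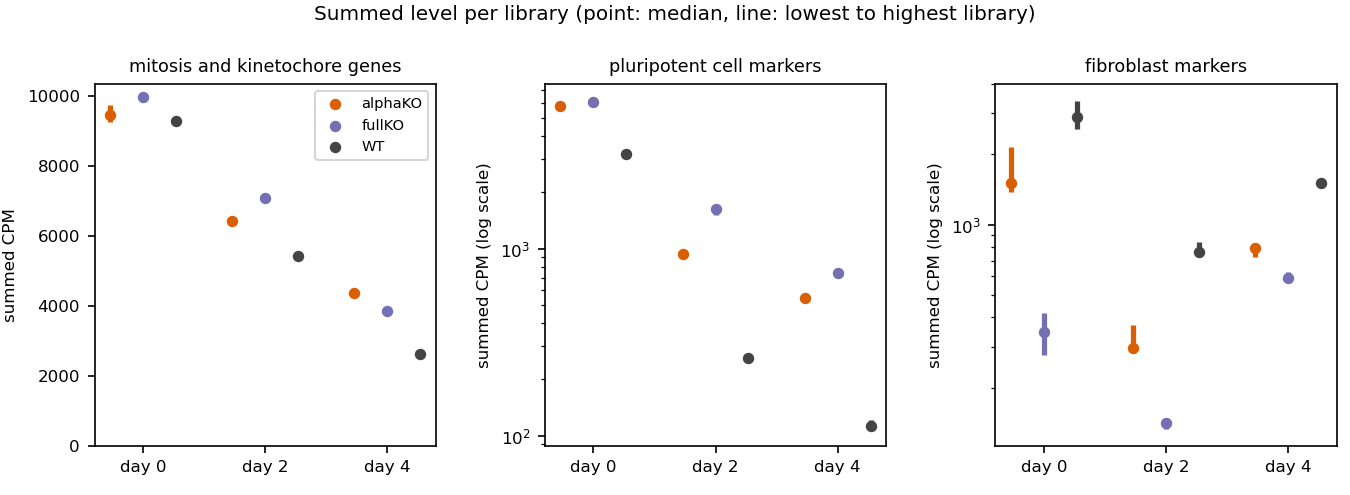
Summed level in CPM of the 40 mitosis and kinetochore genes (left, linear axis), 8 pluripotent cell markers (middle, log axis) and 10 fibroblast markers (right, log axis) by day, with alphaKO, fullKO and WT in that order; points are group medians and lines run from the lowest to the highest library. At day 4 the mitosis genes summed to 4298 to 4399 CPM in alphaKO, 3830 to 3926 CPM in fullKO and 2589 to 2714 CPM in WT.

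Differentiation of WT cells was accompanied by a lower level of the whole set. Between day 0 and day 4 all 40 genes fell in WT (36.7% of all 18412 genes tested fell and 40.6% rose, 77.3% in either direction), with a median log2 fold change of -1.80 against 0.10 for all genes, and their summed level stood at 2589 to 2714 CPM at day 4 compared with 9243 to 9384 CPM at day 0. The median gene kept 28.8% of its day 0 level. The extremes were Spc24, a subunit of the Ndc80 complex that joins it to the inner kinetochore, which kept 17.3%, and Spc25, its partner in that complex, which kept 62.6%. In bulk RNA, fewer dividing cells and less mitotic RNA per cell cannot be told apart.

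The cyclin and kinase group fell by a median of 1.84 on the log2 scale in WT by day 4. Ccnb1, cyclin B1, averaged 64.8 ± 1.29 CPM at day 4, 118 ± 0.793 CPM at day 2 and 332 ± 2.36 CPM at day 0 (SD, n = 3 each). That is a log2 fold change from day 0 to day 4 of -2.36 ± 0.045 (SE; edgeR quasi-likelihood test, Benjamini-Hochberg adjusted p = 8.59e-53), a larger fall than that of its kinase. Cdk1 itself, which is also regulated through its cyclins and by phosphorylation, averaged 87.2 ± 7.21 CPM at day 4 and 219.5 ± 13.7 CPM at day 0 (-1.33 ± 0.047). Aurka, the centrosomal Aurora kinase, averaged 41.4 ± 0.518 and 207 ± 9.49 CPM on the same days (-2.32 ± 0.052), and Plk1, the Polo kinase of centrosomes and kinetochores, 59.4 ± 3.04 and 241 ± 10.1 CPM (-2.02 ± 0.050). The phosphatase Cdc25b had the smallest fall of the group, at -0.87 ± 0.075.

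Of the kinetochore genes, Bub1b (the checkpoint protein BubR1) averaged 69.2 ± 1.11 CPM at day 4 and 348 ± 3.98 CPM at day 0 in WT, a fall by 2.33 on the log2 scale. Bub3, its partner protein in the same checkpoint, averaged 109.5 ± 7.64 and 194 ± 5.04 CPM on these days, a fall by 0.82. Subunits of single complexes spread as widely. In the Ndc80 complex, which binds microtubules, the WT changes by day 4 were -2.52 ± 0.080 for Spc24, -1.31 ± 0.072 for Ndc80, -1.18 ± 0.068 for Nuf2 and -0.68 ± 0.066 for Spc25. The chromosomal passenger complex, which corrects wrong attachments, was more even, with -2.03 ± 0.051 for Cdca8 (borealin), -1.98 ± 0.044 for the scaffold Incenp, -1.94 ± 0.070 for the kinase Aurkb and -1.64 ± 0.060 for Birc5 (survivin). Cenpa, the histone H3 variant that marks centromeres, fell by 1.7 on the log2 scale.

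Among spindle genes Kif11, the motor that pushes spindle poles apart, fell by 2.1 and Tpx2, which activates Aurora A on the spindle, by 1.35 on the log2 scale. Nusap1, a microtubule bundling protein, had the largest fall of that group at -2.39 ± 0.057, and Kif4, a chromosome-bound motor, the smallest at -0.90 ± 0.057. In cytokinesis, Ect2, the exchange factor that switches on RhoA at the cell equator, fell by 1.79, Kif23, the motor of centralspindlin, by 1.02 and Anln, the contractile ring scaffold anillin, by 0.82. On mitotic chromosomes, Top2a, which untangles sister DNA, fell by 2.35 and Mki67, the Ki-67 protein that coats them, by 1.92.

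The fall came in 2 steps that differed between genes. From day 0 to day 2, 32 genes fell and 2 rose in WT (33.9% of all genes fell and 36.6% rose, 70.6% in either direction), with a median of -0.68. From day 2 to day 4, all 40 fell (29.2% of all genes fell and 30.1% rose, 59.3% in either direction), with a median of -1.09. The early step was the larger one for 10 genes, among them Aurka, Ccnb1, Top2a, Plk1 and Aurkb, and the late step for the other 30. The 2 early rises were Cdc25b, with 47.9, 46 and 46.4 CPM at day 2 and 39.1, 40.2 and 38.2 CPM at day 0 (0.26 ± 0.069, adjusted p = 0.000771 by edgeR), and Kif4, with 86, 83.5 and 79.4 CPM at day 2 and 75.3, 70.4 and 72.6 CPM at day 0 (0.19 ± 0.053, adjusted p = 0.00125). Neither gene had overlapping libraries between the days. Anln, Kif23, Mad2l1, Ndc80, Nuf2 and Spc25 had no call in the early step, with log2 fold changes of -0.022 for Anln, 0.067 for Kif23, -0.059 for Mad2l1, -0.023 for Ndc80, 0.10 for Nuf2 and 0.09 for Spc25. These 6 include 3 of the 4 genes of the Ndc80 complex.

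**Figure D2:**
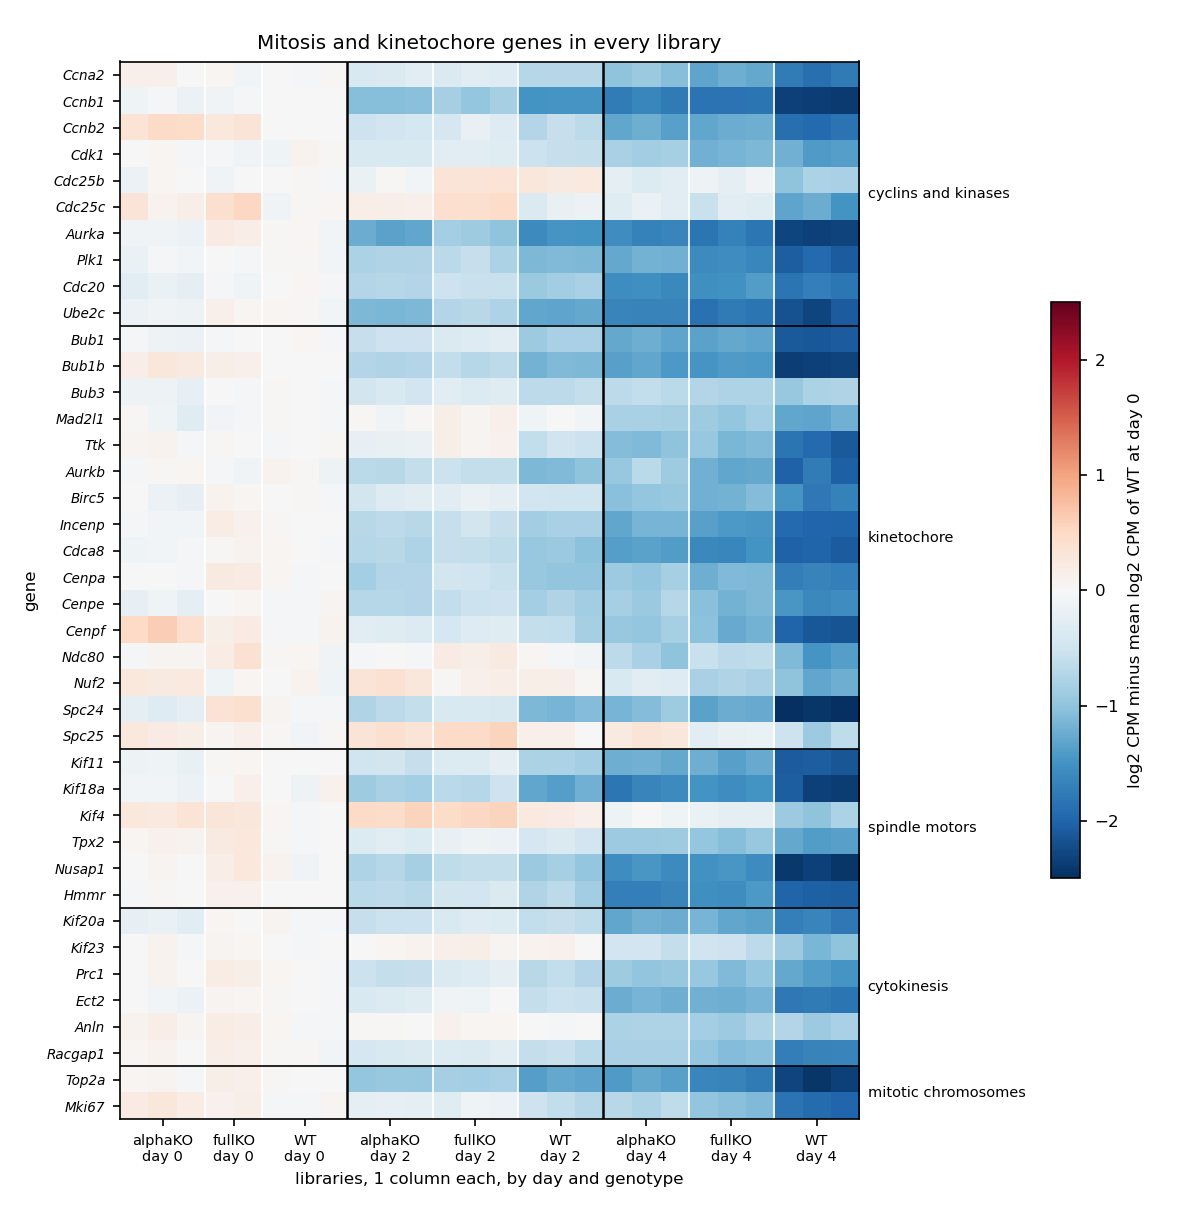
Log2 CPM of each of the 40 genes (rows, by role) in each of the 26 libraries (columns, by day and then alphaKO, fullKO and WT) minus the mean of the WT libraries at day 0; red is higher and blue lower. The WT columns at day 4 are the bluest block, and there the rows of Anln and Bub3 differ least between genotypes.

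In undifferentiated cells the medians of the set lay near 0 in both knockout lines. Called genes went in both directions in alphaKO and only upward in fullKO. In alphaKO at day 0, 9 genes were higher and 8 lower than in WT (17.6% and 20.9% of all genes tested, 38.5% in either direction), with a median log2 fold change of 0.00 against -0.03 for all genes. In fullKO at day 0, 16 were higher and none lower (16.3% and 17.9% of all genes, 34.2% in either direction), with a median of 0.08 against -0.01. Every alphaKO library lay above every WT library for 10 genes and below for 11 (20.8% and 23.8% of all genes). Both fullKO libraries lay above every WT library for 23 genes and below for 3 (26.5% and 27.5%). The same WT libraries serve both comparisons. No gene of the set reached a 2-fold difference at day 0. Among all genes tested, 722 were called at least 2-fold higher and 627 lower in alphaKO, and 678 and 1272 in fullKO.

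Of the 10 cyclin and kinase genes, 2 were higher and 2 lower in alphaKO and 3 were higher in fullKO at day 0. Ccnb1 had 309.7, 325 and 299.5 CPM in alphaKO, 311 and 321 CPM in fullKO and 329, 334 and 332 CPM in WT libraries. Its WT libraries lay above all knockout libraries, by less than the test could call (adjusted p = 0.0684 in alphaKO and 0.255 in fullKO by edgeR). Cdk1 had 220.4, 226 and 213 CPM in alphaKO, 213 and 206 CPM in fullKO and 205, 232 and 222 CPM in WT libraries. Plk1 had 214, 234 and 230.2 CPM in alphaKO, 244 and 238 CPM in fullKO and 247, 247 and 229.6 CPM in WT libraries. Both of these overlapped between genotypes. Aurka had 195, 194 and 186 CPM in alphaKO, 237 and 232 CPM in fullKO and 209, 214 and 196 CPM in WT libraries. For Aurka fullKO lay above WT (0.18 ± 0.051, adjusted p = 0.00291) and alphaKO had no call. The largest difference of the group in alphaKO was that of Ccnb2, cyclin B2, with 163, 178 and 176 CPM in alphaKO, 155 and 162 CPM in fullKO and 131, 128 and 128 CPM in WT libraries. Both knockout lines lay above every WT library for Ccnb2, by 0.42 ± 0.049 in alphaKO and 0.30 ± 0.055 in fullKO. Cdc25c, the mitotic phosphatase, had 38.8, 32.9 and 35 CPM in alphaKO, 40.8 and 44.2 CPM in fullKO and 29.4, 31.9 and 32 CPM in WT libraries, and was the largest rise in fullKO at 0.45 ± 0.087 (edgeR adjusted p = 1.66e-05).

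Of the 16 kinetochore genes, 4 were higher and 4 lower in alphaKO and 6 were higher in fullKO at day 0. Cenpf, a large protein of the outer kinetochore corona, had 513, 552 and 483 CPM in alphaKO, 398 and 419 CPM in fullKO and 351, 353 and 383 CPM in WT libraries. The alphaKO libraries lay well above all others, with a log2 fold change against WT of 0.51 ± 0.058 (adjusted p = 5e-08 by edgeR), but Cenpf lies on chromosome 1, whose genes were higher at the median by 0.41 in alphaKO, and the part of the chromosome in the result was not tested. Nuf2, also on chromosome 1, had a log2 fold change of 0.24 ± 0.061 in alphaKO and -0.031 ± 0.070 in fullKO. Spc24 had 50.4, 48 and 50.5 CPM in alphaKO, 77.3 and 78.9 CPM in fullKO and 62.6, 58.7 and 58.8 CPM in WT libraries. It was the largest fall in alphaKO (-0.27 ± 0.065, adjusted p = 0.000337) and higher in fullKO (0.38 ± 0.070, adjusted p = 8.16e-06), so the 2 knockout lines lay on opposite sides of WT without overlap. Bub1b had 393, 422 and 405 CPM in alphaKO, 387 and 383 CPM in fullKO and 350.3, 351 and 344 CPM in WT libraries. Both knockout lines lay above WT for Bub1b, by 0.22 ± 0.038 in alphaKO and 0.14 ± 0.043 in fullKO. Bub3 had 177, 178 and 169 CPM in alphaKO, 194 and 187 CPM in fullKO and 198, 196 and 188 CPM in WT libraries, lower in alphaKO by 0.15 on the log2 scale. Aurkb had 87.3, 92.1 and 93.8 CPM in alphaKO, 86.7 and 84.4 CPM in fullKO and 96.1, 92.4 and 82.5 CPM in WT libraries, without a call in either line. Cenpa had 133, 133 and 131 CPM in alphaKO, 158 and 154 CPM in fullKO and 139.5, 131 and 134 CPM in WT libraries, above WT in fullKO (0.21 ± 0.052) and without a call in alphaKO (-0.024 ± 0.047). Ndc80 had 66.7, 70.8 and 71 CPM in alphaKO, 77.3 and 88.1 CPM in fullKO and 69.4, 70.6 and 64 CPM in WT libraries, higher in fullKO by 0.28 ± 0.071.

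Of the spindle genes, Kif11 had 319, 324 and 309 CPM in alphaKO, 358 and 363 CPM in fullKO and 346, 353 and 348 CPM in WT libraries at day 0, and alphaKO lay below WT by 0.14 on the log2 scale. Tpx2 had 347, 361 and 359 CPM in alphaKO, 395 and 408 CPM in fullKO and 343, 331 and 339 CPM in WT libraries, and fullKO lay above WT by 0.25 ± 0.043. Kif4 was higher in both lines, by 0.29 ± 0.052 in alphaKO and 0.29 ± 0.058 in fullKO. Of the cytokinesis genes, Kif23 had 142, 151 and 138 CPM in alphaKO, 150.1 and 148 CPM in fullKO and 143, 139.5 and 144 CPM in WT libraries. Ect2 had 264, 255 and 242 CPM in alphaKO, 279 and 276 CPM in fullKO and 272, 264 and 262 CPM in WT libraries. Neither was called in either line. Anln was called higher in both, by 0.11 in alphaKO and 0.18 in fullKO. Kif20a, a motor of the central spindle, was lower in alphaKO by 0.21, as was Cdc20 by 0.23. Bub1, Cenpe and Ube2c were called lower in alphaKO as well. Top2a had 1437, 1461 and 1365 CPM in alphaKO, 1558 and 1527 CPM in fullKO and 1433, 1383 and 1380 CPM in WT libraries. Mki67 had 736, 771 and 724 CPM in alphaKO, 682 and 704 CPM in fullKO and 618, 625 and 669 CPM in WT libraries. Top2a was called in fullKO (0.14 ± 0.041) and Mki67 in alphaKO (0.22 ± 0.044), while the other line of each had no call. The day 0 count for fullKO rests on 2 libraries and was 7 higher and none lower without its replicate 1, where the lone library left was assumed to vary like the other groups. The near-even split in alphaKO, 9 higher and 8 lower, tipped the other way in 5 settings. It did so with RLE size factors (7 higher and 11 lower), with DESeq2 and with a filter of at least 10 counts in every library. It also tipped without WT replicate 3 (8 and 10) and without alphaKO replicate 1 (8 and 9).

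By day 2 of retinoic acid most of the set stood above WT in both knockout lines. In alphaKO 31 genes were higher and 1 lower (20.1% and 20.3% of all genes tested, 40.4% in either direction), with a median log2 fold change of 0.22 against 0.01 for all genes. In fullKO 36 were higher and none lower (23.9% and 23.8%, 47.7% in either direction), with a median of 0.35 against 0.02. Every library of the knockout line lay above every WT library for 35 genes in alphaKO and 38 in fullKO (24.6% and 27.5% of all genes). Among all genes tested, 546 were called at least 2-fold higher and 1116 lower in alphaKO, and 1140 and 1301 in fullKO. No gene of the set reached 2-fold on that day, and the differences of the set were small. Beside them, the 8 pluripotent cell markers summed to 934.8 to 961.2 CPM in alphaKO, 1514 to 1625 CPM in fullKO and 258.9 to 264.9 CPM in WT, and the fibroblast markers to 297 to 372.5 CPM in alphaKO, 132.8 to 142.2 CPM in fullKO and 754.5 to 844.2 CPM in WT. All 8 pluripotent markers were higher in both lines, and the part of these markers in the result was not tested.

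Cyclin B1 was among the genes that moved most at day 2. Ccnb1 had 158, 158 and 161 CPM in alphaKO, 188, 169 and 188 CPM in fullKO and 118, 119 and 119 CPM in WT libraries. The groups did not overlap, and the log2 fold change against WT was 0.42 ± 0.043 in alphaKO (adjusted p = 5.49e-13) and 0.61 ± 0.043 in fullKO (edgeR adjusted p = 4.09e-20). Cdk1 had 169, 168 and 168 CPM in alphaKO, 183, 179 and 177 CPM in fullKO and 151, 147 and 146 CPM in WT libraries, a smaller difference of 0.18 ± 0.045 in alphaKO and 0.28 ± 0.045 in fullKO, again without overlap. Plk1 had 140.2, 144 and 144 CPM in alphaKO, 151, 162 and 139 CPM in fullKO and 110.2, 112 and 110.2 CPM in WT libraries. Aurka had 86.9, 81.4 and 83.9 CPM in alphaKO, 114, 111 and 102 CPM in fullKO and 68.4, 73.9 and 73.6 CPM in WT libraries. Both were higher in each knockout line than in every WT library. Cdc25c had 34.6, 34.4 and 34 CPM in alphaKO, 41.6, 41.2 and 42.6 CPM in fullKO and 24.3, 27.3 and 28.2 CPM in WT libraries, with 0.37 ± 0.080 in alphaKO and 0.65 ± 0.079 in fullKO. Cdc25b was the exception, with 34.9, 39.9 and 37.4 CPM in alphaKO, 48.9, 48.7 and 49.5 CPM in fullKO and 47.9, 46 and 46.4 CPM in WT libraries. It was the only gene of the set called lower than in WT at day 2, by 0.32 on the log2 scale in alphaKO (adjusted p = 8.07e-05 by edgeR). In fullKO it was not called (0.069 ± 0.067).

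In the kinetochore group, 13 of 16 genes were higher in alphaKO and 15 of 16 in fullKO at day 2. Spc24 led both lines, with 35.4, 38.2 and 39.97 CPM in alphaKO, 46.2, 46.3 and 45.7 CPM in fullKO and 27.5, 26.8 and 28.2 CPM in WT libraries, which is 0.46 ± 0.071 in alphaKO and 0.74 ± 0.070 in fullKO. Bub1b had 210.0, 208 and 210.2 CPM in alphaKO, 228, 214 and 221 CPM in fullKO and 153, 163 and 160.1 CPM in WT libraries. Bub3 had 140.4, 149 and 139.7 CPM in alphaKO, 162, 152 and 157 CPM in fullKO and 124, 124 and 128 CPM in WT libraries. Knockout libraries lay above all WT libraries for both, by 0.48 ± 0.040 for Bub1b and 0.32 ± 0.044 for Bub3 in fullKO. Aurkb had 56.3, 55.9 and 59.6 CPM in alphaKO, 61.7, 59.6 and 59.6 CPM in fullKO and 41.4, 42 and 45 CPM in WT libraries. Cenpa had 74.6, 81.1 and 81.3 CPM in alphaKO, 97.9, 95.8 and 92 CPM in fullKO and 69.8, 67.9 and 68.2 CPM in WT libraries. For both, all knockout libraries lay above all WT libraries, and Cenpa was higher by 0.20 ± 0.051 in alphaKO and 0.47 ± 0.050 in fullKO. Ndc80 had 66.2, 68.6 and 66.3 CPM in alphaKO, 78.6, 75.1 and 79.5 CPM in fullKO and 70.2, 66.2 and 64.5 CPM in WT libraries. For Ndc80 alphaKO had no call (0.0014 ± 0.065) and fullKO was higher (0.21 ± 0.064), which is the reverse of Nuf2 (0.22 ± 0.060 in alphaKO and 0.0071 ± 0.061 in fullKO), the gene on chromosome 1 whose protein pairs with Ndc80. Ttk, the kinase that starts the checkpoint, was higher by 0.36 ± 0.054 in alphaKO and 0.65 ± 0.053 in fullKO.

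Spindle genes were higher in 5 of 6 cases in alphaKO and in all 6 in fullKO at day 2. Kif11 had 246, 254 and 234 CPM in alphaKO, 276, 275 and 293 CPM in fullKO and 202, 202 and 195 CPM in WT libraries. Tpx2 had 267, 277 and 265 CPM in alphaKO, 296, 309 and 305 CPM in fullKO and 251, 264 and 241 CPM in WT libraries. Kif11 was higher by 0.29 ± 0.040 in alphaKO and 0.49 ± 0.040 in fullKO, Tpx2 by only 0.097 ± 0.039 in alphaKO and 0.27 ± 0.039 in fullKO. Kif18a, a motor that dampens chromosome movements, reached 0.44 ± 0.073 in alphaKO and 0.65 ± 0.072 in fullKO. Cytokinesis genes had the fewest calls for their number, with 2 of 6 higher in alphaKO and 4 of 6 in fullKO. Kif23 had 144, 148 and 152 CPM in alphaKO, 154, 157 and 149.7 CPM in fullKO and 151, 153 and 143 CPM in WT libraries, with no call in either line. Ect2 had 205, 211 and 216 CPM in alphaKO, 252, 246 and 263 CPM in fullKO and 177, 184 and 180.0 CPM in WT libraries, and was higher in both (0.22 ± 0.040 in alphaKO and 0.49 ± 0.040 in fullKO). Top2a had 714, 727 and 730.1 CPM in alphaKO, 789, 776 and 797 CPM in fullKO and 537, 577 and 563 CPM in WT libraries. Mki67 had 541, 555 and 544 CPM in alphaKO, 518, 594 and 572 CPM in fullKO and 443, 417 and 391 CPM in WT libraries. Both lay above every WT library in each knockout line.

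**Figure D3:**
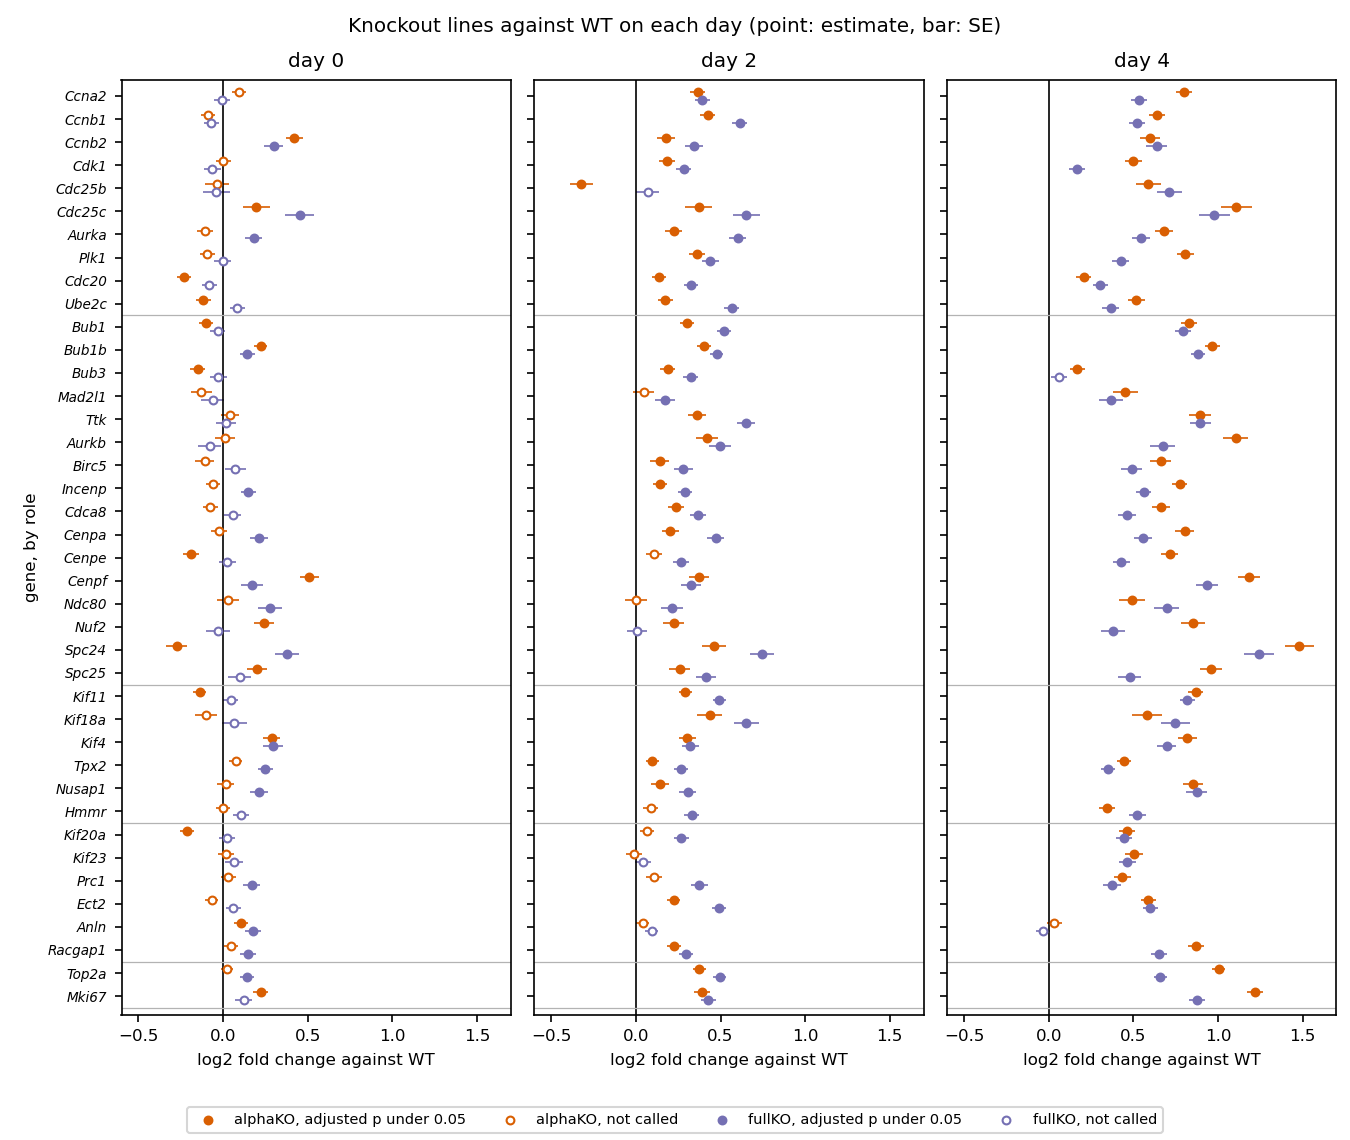
Log2 fold change against WT (x axis, with SE) of each gene (rows, by role) in alphaKO and fullKO at days 0, 2 and 4; filled points have an adjusted p under 0.05 (edgeR). The points scatter around 0 at day 0 with medians of 0.00 and 0.08, and at day 4 all but Anln in both lines and Bub3 in fullKO lie right of 0 and are called.

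At day 4 nearly the whole set stood above WT in both knockout lines. In alphaKO 39 of 40 genes were higher and none lower (28.7% and 23.9% of all genes tested, 52.6% in either direction). The median log2 fold change of the set was 0.70 against 0.06 for all genes. Of the 40 genes, 6 were called at least 2-fold higher, beside 1522 of all 18412 genes tested. In fullKO 38 were higher and none lower (25.2% and 24.6%, 49.7% in either direction), with a median of 0.55 against 0.02. Only 1 of the 40, Spc24, was called at least 2-fold higher there. That is a smaller share than the 1492 of all 18412 genes tested. Every knockout library lay above every WT library for 39 genes in alphaKO and 37 in fullKO (31.9% and 28.2% of all genes). Without Cenpf and Nuf2 on chromosome 1 the counts were 37 of 38 and 36 of 38. The pluripotent markers summed to 517.8 to 553.3 CPM in alphaKO, 731.8 to 741.5 CPM in fullKO and 108.7 to 121.5 CPM in WT on that day, Pou5f1 having 31.8, 29.6 and 35.6 CPM in alphaKO, 40.6, 43.8 and 42.6 CPM in fullKO and 2.83, 5.30 and 2.99 CPM in WT libraries. The fibroblast markers summed to 724.8 to 800.4 CPM in alphaKO, 574.4 to 624.9 CPM in fullKO and 1471 to 1573 CPM in WT, and the part of either marker group in the result was not tested.

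All 10 genes of the cyclin and kinase group were higher in both lines at day 4. Ccnb1 had 98.2, 107 and 97.5 CPM in alphaKO, 92.2, 92.5 and 93.9 CPM in fullKO and 66.1, 64.8 and 63.5 CPM in WT libraries. This is 1.56-fold in alphaKO (0.64 ± 0.047, adjusted p = 2.13e-19 by edgeR) and 1.43-fold in fullKO (0.52 ± 0.047, adjusted p = 2.25e-15), with no overlap. Cdk1 had 125, 120.5 and 124 CPM in alphaKO, 94.9, 97.6 and 100.1 CPM in fullKO and 95.4, 81.9 and 84.2 CPM in WT libraries. The alphaKO libraries stood clear of WT (0.50 ± 0.048), while fullKO differed by 0.17 ± 0.048 and its lowest library lay below the highest WT library. Plk1 had 99.4, 107 and 106 CPM in alphaKO, 79.5, 82.4 and 77.4 CPM in fullKO and 58, 62.9 and 57.3 CPM in WT libraries. Aurka had 70.1, 64 and 65.3 CPM in alphaKO, 58.5, 63.7 and 59.1 CPM in fullKO and 41.8, 40.9 and 41.6 CPM in WT libraries. Plk1 was higher by 0.81 ± 0.051 in alphaKO and 0.43 ± 0.052 in fullKO, and Aurka by 0.68 ± 0.055 in alphaKO and 0.55 ± 0.055 in fullKO. Cdc25c had 25.3, 27.6 and 25.7 CPM in alphaKO, 21, 25.5 and 25.3 CPM in fullKO and 12.4, 13.2 and 11 CPM in WT libraries, the largest difference of the group, at 1.11 ± 0.092 in alphaKO and 0.98 ± 0.092 in fullKO. Ccna2, cyclin A2, was higher by 0.80 ± 0.046 in alphaKO and 0.53 ± 0.046 in fullKO and Ccnb2 by 0.60 ± 0.060 in alphaKO and 0.64 ± 0.060 in fullKO. Cdc20 had the smallest difference in alphaKO at 0.21 ± 0.044, with Cdk1 the smallest in fullKO. Cdc25b, the exception at day 2, was higher in both lines at day 4, by 0.59 ± 0.076 in alphaKO and 0.71 ± 0.075 in fullKO.

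All 16 kinetochore genes were higher in alphaKO at day 4 (median 0.82) and 15 of 16 in fullKO (median 0.56). Spc24 had 27, 28.3 and 32.3 CPM in alphaKO, 23.8, 25.3 and 25 CPM in fullKO and 9.43, 11.1 and 10.7 CPM in WT libraries. It was 2.79-fold higher than WT in alphaKO (1.48 ± 0.085, edgeR adjusted p = 1.45e-24) and 2.37-fold higher in fullKO (1.24 ± 0.086, edgeR adjusted p = 1.78e-20). This was the largest difference from WT of the set in both lines. Its complex partners followed at 0.96 ± 0.065 in alphaKO and 0.48 ± 0.066 in fullKO for Spc25, 0.85 ± 0.069 in alphaKO and 0.38 ± 0.071 in fullKO for Nuf2, and 0.49 ± 0.075 in alphaKO and 0.70 ± 0.074 in fullKO for Ndc80. Ndc80 itself had 43, 38.8 and 33.8 CPM in alphaKO, 46.3, 43.4 and 43.5 CPM in fullKO and 31.8, 24.6 and 26.3 CPM in WT libraries. Cenpf had 187, 186 and 204 CPM in alphaKO, 177, 152 and 159.5 CPM in fullKO and 90.1, 83.5 and 81.6 CPM in WT libraries, and was higher by 1.18 ± 0.065 in alphaKO and 0.94 ± 0.065 in fullKO. Chromosome 1 genes were higher at the median by 0.50 in alphaKO and 0.34 in fullKO on that day, and their part in the Cenpf result was not tested.

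Of the 5 checkpoint genes, all were higher in alphaKO and 4 in fullKO. Bub1b had 136, 142 and 128 CPM in alphaKO, 125, 129.8 and 128 CPM in fullKO and 68.1, 69.3 and 70.3 CPM in WT libraries, a difference of 0.97 ± 0.044 in alphaKO and 0.88 ± 0.044 in fullKO. Bub1, the checkpoint kinase at kinetochores, was higher by 0.83 ± 0.048 in alphaKO and 0.79 ± 0.048 in fullKO, and Ttk by 0.89 ± 0.063 in alphaKO and 0.90 ± 0.063 in fullKO. Bub3 had 123, 126 and 121 CPM in alphaKO, 117, 114 and 113 CPM in fullKO and 101, 112 and 116 CPM in WT libraries. It was called in alphaKO at 0.17 ± 0.046 and had no call in fullKO (0.062 ± 0.046, adjusted p = 0.269 by edgeR), where its libraries overlapped those of WT. All 4 passenger complex genes were higher in both lines. Aurkb had 46.5, 56.5 and 48.9 CPM in alphaKO, 39.4, 36.5 and 37.2 CPM in fullKO and 22.1, 26.8 and 21.8 CPM in WT libraries, which is 2.15-fold in alphaKO (1.1 ± 0.072) and 1.60-fold in fullKO (0.67 ± 0.074), and the other 3 ranged from 0.66 upward in alphaKO and from 0.46 upward in fullKO. Cenpa had 71.8, 69 and 75.8 CPM in alphaKO, 57.8, 62.9 and 61.8 CPM in fullKO and 40.8, 42.3 and 41 CPM in WT libraries, higher by 0.80 ± 0.054 in alphaKO and 0.56 ± 0.054 in fullKO.

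All 6 spindle genes were higher at day 4 in both lines. Kif11 had 150.5, 152 and 145 CPM in alphaKO, 150.5, 137 and 145 CPM in fullKO and 82.2, 83.7 and 79.3 CPM in WT libraries, so its knockout libraries stood at nearly the same level in both lines, 1.83-fold above WT in alphaKO (0.87 ± 0.044) and 1.76-fold in fullKO (0.82 ± 0.044). Tpx2 had 179, 180.2 and 183 CPM in alphaKO, 172, 162 and 175 CPM in fullKO and 138, 128 and 132 CPM in WT libraries, a smaller difference of 0.44 ± 0.041 in alphaKO and 0.35 ± 0.041 in fullKO. Nusap1 was higher by 0.85 ± 0.061 in alphaKO and 0.87 ± 0.061 in fullKO, and Hmmr, a spindle-assembly protein bound to microtubules, by 0.35 ± 0.049 in alphaKO and 0.52 ± 0.049 in fullKO. In the cytokinesis group 5 of 6 genes were higher in both lines. Kif23 had 102, 102 and 93.6 CPM in alphaKO, 101, 98.9 and 90.6 CPM in fullKO and 75.9, 64 and 71.1 CPM in WT libraries. Ect2 had 112, 118 and 115 CPM in alphaKO, 116, 114 and 118 CPM in fullKO and 76.9, 78.4 and 74.9 CPM in WT libraries. Their knockout libraries all lay above WT. Racgap1, the partner of Kif23 in centralspindlin, led the group in both lines with 0.87 ± 0.047 in alphaKO and 0.65 ± 0.047 in fullKO.

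Anln was the 1 gene of the set with no call in either line at day 4. It had 135, 137 and 136 CPM in alphaKO, 129, 124 and 136 CPM in fullKO and 141, 124 and 134 CPM in WT libraries, and all 3 groups overlapped (0.033 ± 0.043 in alphaKO, adjusted p = 0.548, and -0.033 ± 0.043 in fullKO, adjusted p = 0.563, edgeR). The other 5 cytokinesis genes were called in both lines, among them Prc1, the midzone bundling protein, at 0.44 ± 0.052 in alphaKO and 0.37 ± 0.052 in fullKO. On mitotic chromosomes, Top2a had 525, 578 and 547 CPM in alphaKO, 451, 439 and 409 CPM in fullKO and 287, 260.2 and 276 CPM in WT libraries, 2.01-fold above WT in alphaKO (1.01 ± 0.039) and 1.58-fold in fullKO (0.66 ± 0.039). Mki67 had 394, 370.5 and 409.5 CPM in alphaKO, 320.4, 309 and 298 CPM in fullKO and 177, 167 and 161 CPM in WT libraries, 2.32-fold above WT in alphaKO (1.22 ± 0.047) and 1.84-fold in fullKO (0.88 ± 0.047). For both, alphaKO lay above fullKO and fullKO above WT with no overlap.

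**Figure D4:**
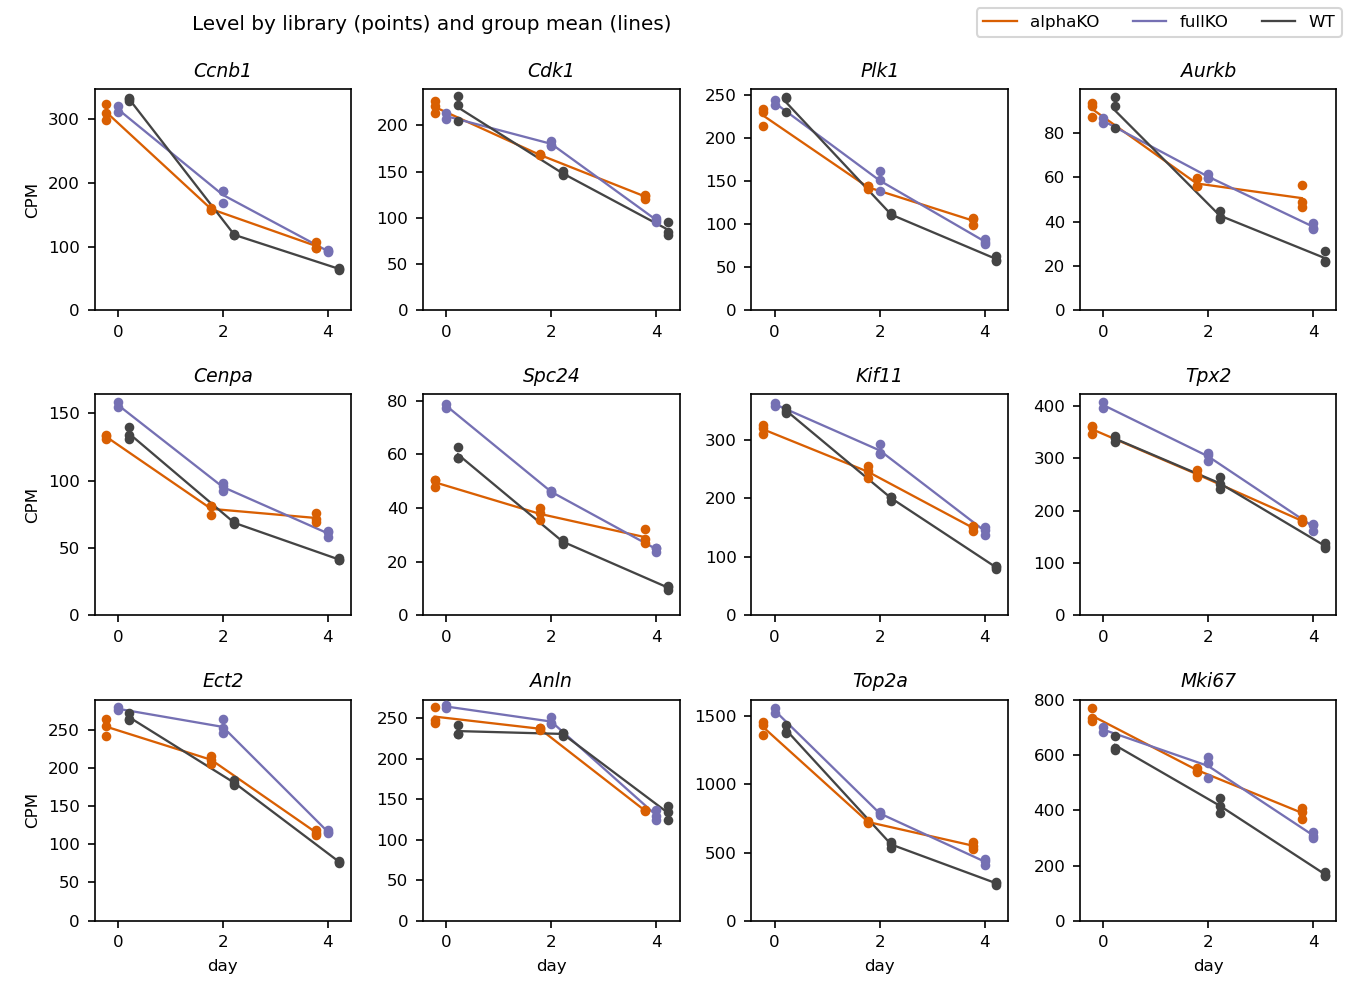
CPM of 12 genes (1 panel each, y axis from 0) at days 0, 2 and 4; points are libraries, lines join group means, and alphaKO, fullKO and WT are set side by side at each day. Ccnb1 stands at 311 CPM in alphaKO, 316 in fullKO and 331.5 in WT at day 0. At day 4 it stands near 101 CPM in alphaKO, 92.9 in fullKO and 64.8 in WT. The lines of Spc24 are apart already at day 0, at 49.6 CPM in alphaKO, 78.1 in fullKO and 60.05 in WT. Those of Anln stay close, with 252 CPM in alphaKO, 264.5 in fullKO and 234 in WT at day 0, where both knockout lines were called higher.

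Set against their own day 0, the mitosis genes declined in both knockout lines, and most declined less there than in WT. Within alphaKO 39 genes fell from day 0 to day 4 and none rose (35.7% and 40.2% of all genes, 75.9% in either direction), with a median of -1.01, and within fullKO 39 fell and none rose (34.6% and 39.4%, 74.0% in either direction), with a median of -1.26, where the WT median was -1.80. The median gene kept 49.7% of its day 0 level at day 4 in alphaKO, 41.8% in fullKO and 28.8% in WT. The test of the difference in change between alphaKO and WT called 38 genes with a smaller decline and none with a larger one (24.3% and 19.7% of all genes, 44% in either direction), median 0.72. For fullKO it called 37 with a smaller decline and 1 with a larger one (19.5% and 15.6%, 35.1% in either direction), median 0.42. Both tests share the WT libraries.

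Spc24 had the largest difference in change in alphaKO, 1.76 ± 0.11 (adjusted p = 8.01e-23 by edgeR), since it kept 58.8% of its day 0 level there and 17.3% in WT. Its difference in fullKO was 0.86 ± 0.11, from a higher day 0 level, and it kept 31.6%. Aurkb (1.09 ± 0.094), Kif11 (1.01 ± 0.059), Mki67 (0.99 ± 0.064) and Top2a (0.98 ± 0.054) came next in alphaKO. In fullKO the largest differences were those of Ttk (0.88 ± 0.086), Spc24, Bub1 (0.82 ± 0.067), Kif11 (0.77 ± 0.062) and Cenpf (0.77 ± 0.093). Anln was the 1 gene that declined more in fullKO than in WT (-0.21 ± 0.063, adjusted p = 0.00618), having started higher in fullKO at day 0. Ccnb2 had no call for a difference in change in alphaKO (0.18 ± 0.078, adjusted p = 0.0572 by edgeR), and it was higher than in WT on each of the 3 days. Spc25 was the 1 gene with no fall by day 4 in alphaKO (0.074 ± 0.060), with 65.2, 70.6 and 68 CPM at day 4 and 67, 64.3 and 62.4 CPM at day 0, and Cdc25b the 1 with none in fullKO (-0.11 ± 0.079).

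The decline of the knockout lines came in 2 steps as well. From day 0 to day 2, 32 genes fell and 2 rose in alphaKO (33.5% and 34.4% of all genes, 67.9% in either direction, with a median of -0.44), and 31 fell and 4 rose in fullKO (31.4% and 33.5%, 64.9% in either direction, with a median of -0.43). The risers were Kif4 and Spc25 in alphaKO, and Spc25, Cdc25b, Kif4 and Mad2l1 in fullKO, of which Kif4 and Cdc25b also rose in WT. From day 2 to day 4, 39 genes fell in alphaKO and none rose (28.1% of all genes fell and 30% rose, 58.1% in either direction, with a median of -0.59) and all 40 fell in fullKO (28.9% and 29.6%, 58.5% in either direction, with a median of -0.88). Already at day 2 the change from day 0 differed from that in WT for 25 genes upward and 2 downward in alphaKO (17.5% and 14.6% of all genes, 32.1% in either direction, with a median of 0.21) and for 27 upward and none downward in fullKO (15.9% and 12.8%, 28.8% in either direction, with a median of 0.28). The 2 downward genes in alphaKO were Cdc25b (-0.29 ± 0.098) and Ccnb2 (-0.24 ± 0.072). Ccnb1 was among the 3 largest upward differences in both lines, 0.52 ± 0.059 in alphaKO and 0.68 ± 0.063 in fullKO, as was Kif18a.

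**Figure D5:**
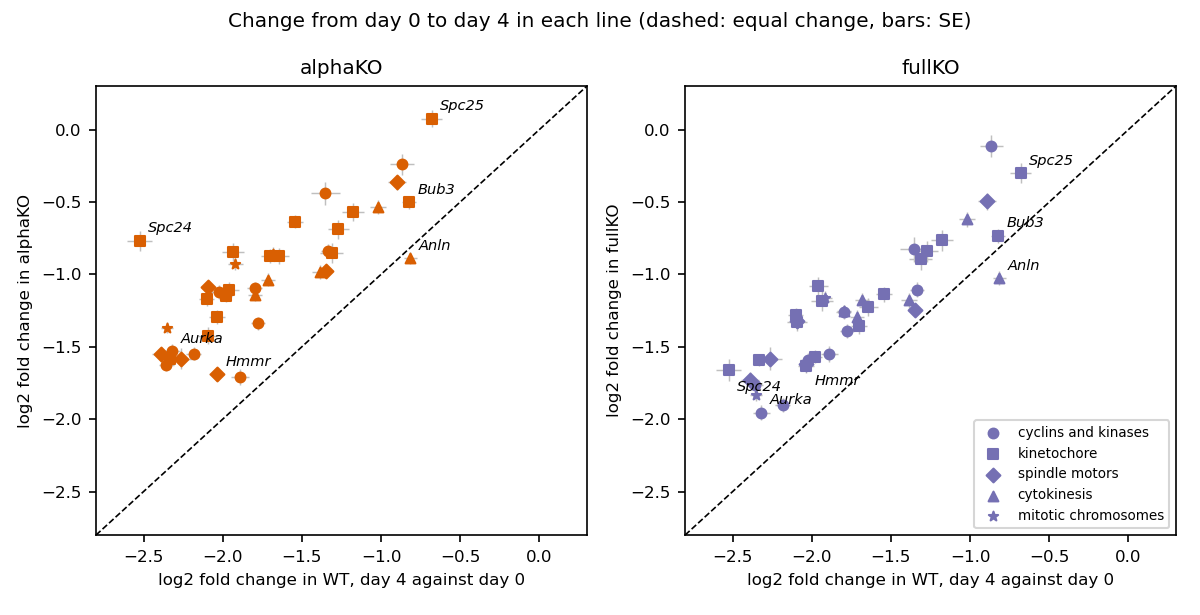
Log2 fold change from day 0 to day 4 of each of the 40 genes in alphaKO (left) and fullKO (right) on the y axis against that in WT on the x axis, with SE; symbols give the role and the dashed line equal change. In both panels 39 genes lie above the line, Anln being the 1 below it.

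Genes with a larger change in WT mostly had a larger change in each knockout line. Across the 40 genes the log2 change from day 0 to day 4 in WT had a Pearson r of 0.81 with that in alphaKO and 0.892 with that in fullKO, as a description over genes that share their libraries within a group. Aurka, Ccnb1 and Nusap1 were among the larger falls in each genotype, and Cdc25b, Kif4 and Spc25 among the smallest changes. Spc24 stood apart in alphaKO, where its change of -0.77 ± 0.069 set beside -2.52 ± 0.080 in WT places it furthest from the line of equal change.

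Set against each other, alphaKO lay below fullKO at days 0 and 2 and above it at day 4 in most of the called genes. At day 0, 2 genes were higher and 19 lower in alphaKO than in fullKO (14.5% and 14.7% of all genes tested, 29.2% in either direction), with a median of -0.11. At day 2, 1 was higher and 26 were lower (13.1% and 12.2%, 25.4% in either direction), with a median of -0.16. At day 4, 19 were higher and 2 lower (17.4% and 15.4%, 32.9% in either direction), with a median of 0.12. The day 0 count was 11 genes without fullKO replicate 1 and 12 without fullKO replicate 2, which leaves that arm with 1 library, assumed to vary like the other groups.

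At day 0 the genes lower in alphaKO were led by Spc24 (-0.65 ± 0.070, adjusted p = 9.42e-12 by edgeR), Aurka (-0.29 ± 0.050) and Cdc25c (-0.26 ± 0.085), and the 2 higher ones were Cenpf and Nuf2 on chromosome 1 (0.34 ± 0.066 and 0.27 ± 0.069). At day 2 they were led by Ube2c (-0.39 ± 0.044), Cdc25b (-0.39 ± 0.067) and Aurka (-0.38 ± 0.049), with Nuf2 the 1 higher gene (0.22 ± 0.059). By day 4 the largest rises of alphaKO over fullKO were those of Spc25 (0.48 ± 0.061), Nuf2 (0.47 ± 0.066) and Aurkb (0.43 ± 0.067, adjusted p = 3.19e-07). Plk1 (0.38 ± 0.049), Top2a (0.35 ± 0.038), Mki67 (0.34 ± 0.045) and Cdk1 (0.34 ± 0.047) were higher as well, as were all 4 passenger complex genes, whereas none of the 5 checkpoint genes was called. The 2 genes lower in alphaKO at day 4 were Ndc80 (-0.20 ± 0.070) and Hmmr (-0.18 ± 0.047). Within the Ndc80 complex, then, Spc25, Nuf2 and Spc24 were higher and Ndc80 lower in alphaKO than in fullKO at day 4.

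Most other genes of mitosis were called in the same direction as the set. Of 99 further genes in 5 lists (kinetochore and centromere, spindle and motor, kinases and phosphatases, condensin and cohesin release, and the anaphase-promoting complex), 84 fell and 11 rose in WT from day 0 to day 4 (median -1.23), where 36.7% of all genes tested fell and 40.6% rose. At day 4, 79 were higher and 7 lower in alphaKO than in WT (median 0.52) and 77 were higher and 7 lower in fullKO (median 0.42). Of all genes tested, 28.7% were higher and 23.9% lower in alphaKO on that day, and 25.2% higher and 24.6% lower in fullKO. Outside chromosome 1, which holds 8 of the 99, these counts were 71 and 7 in alphaKO and 69 and 7 in fullKO. All 15 genes of the condensin and cohesin list were higher in both lines, among them Pttg1, the separase inhibitor securin, which stood at 16.6, 16.5 and 17.5 CPM in alphaKO, 15.4, 13.4 and 15.4 CPM in fullKO and 6.45, 7.56 and 5.92 CPM in WT libraries (1.34 ± 0.11 in alphaKO and 1.15 ± 0.11 in fullKO) and was already higher at day 0 (1.004 ± 0.089 in alphaKO and 0.67 ± 0.10 in fullKO). Of 33 kinetochore and centromere genes 27 were higher in alphaKO and 26 in fullKO, with 2 lower in each. Among the higher ones were the shugoshin Sgo2a on chromosome 1 (1.35 ± 0.088 in alphaKO and 1.4 ± 0.087 in fullKO) and Cenpm (1.36 ± 0.13 in alphaKO and 1.08 ± 0.13 in fullKO), of the constitutive centromere network. The 17 genes of the anaphase-promoting complex list had 8 higher and 2 lower in alphaKO (median 0.18) and 7 higher and 2 lower in fullKO (median 0.11), so the number called in either direction lay near the background of 52.6% of all genes in alphaKO and 49.7% in fullKO. Fbxo5 (Emi1), an inhibitor of that complex, was higher by 1.17 ± 0.069 in alphaKO and 0.99 ± 0.069 in fullKO.

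Regulators of mitotic transcription did not all move alike. Of 17 such genes 12 were higher and 1 lower in alphaKO at day 4, and 10 higher and 3 lower in fullKO, beside 28.7% and 23.9% of all genes tested in alphaKO and 25.2% and 24.6% in fullKO. Mybl2 (B-Myb), which with the MuvB complex switches on late cell cycle genes, had 61.5, 62.7 and 62.1 CPM in alphaKO, 66, 75.7 and 76.5 CPM in fullKO and 26.5, 27.1 and 22.5 CPM in WT libraries. It was higher in both lines, 1.29 ± 0.061 in alphaKO and 1.52 ± 0.060 in fullKO, and had fallen by 4.51 on the log2 scale in WT from day 0. Foxm1, the forkhead factor of the same genes, had 135, 138 and 144 CPM in alphaKO, 118, 124 and 126 CPM in fullKO and 109, 104 and 102 CPM in WT libraries, a smaller difference of 0.41 ± 0.047 in alphaKO and 0.23 ± 0.047 in fullKO. At day 2 Foxm1 was lower in both lines, by 0.16 in alphaKO and 0.17 in fullKO, while most mitosis genes were higher. Rbl1 and E2f5, also in this list, were higher in alphaKO at day 4, by 1.16 ± 0.085 and 0.64 ± 0.078. Rbl1 was already higher at day 0, by 0.65 ± 0.074 in alphaKO and 0.44 ± 0.084 in fullKO. Cdkn1a, the cyclin-dependent kinase inhibitor p21, was on the other side of WT, with 161, 153 and 136 CPM in alphaKO, 183, 189 and 202 CPM in fullKO and 404, 409.9 and 404 CPM in WT libraries. It was lower in alphaKO (-1.44 ± 0.11, adjusted p = 8.54e-10 by edgeR) and in fullKO (-1.08 ± 0.10, adjusted p = 4.65e-08), and lower in both at day 2, while at day 0 it had no call in either line.

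Markers of other cell types differed from WT beside these genes at day 4, when 28.7% of all genes tested were higher and 23.9% lower in alphaKO, and 25.2% higher and 24.6% lower in fullKO. All 8 pluripotent cell markers were higher in alphaKO and 7 of 8 in fullKO, with medians of 2.25 in alphaKO and 2.7 in fullKO on the log2 scale. Of the 10 fibroblast markers 6 were lower and 1 higher in each line. Of 8 primitive endoderm markers 6 were higher in alphaKO and none lower, and 6 were higher and 1 lower in fullKO. Of 8 neuron markers 6 were higher and 1 lower in alphaKO, and 4 were higher and 1 lower in fullKO. Of the 6 neural progenitor markers that passed the count filter 3 were higher and 3 lower in alphaKO, and 1 was higher and 4 lower in fullKO. Summed levels did not all go with these counts. The endoderm markers summed to 3571 to 3982 CPM in alphaKO, 2445 to 2909 CPM in fullKO and 2763 to 2936 CPM in WT. The neuron markers summed to 127.6 to 172.8 CPM in alphaKO, 105.2 to 106.1 CPM in fullKO and 111.1 to 115.2 CPM in WT. The neural progenitor markers summed to 305 to 356 CPM in alphaKO, 250 to 285.6 CPM in fullKO and 612.4 to 692.5 CPM in WT. The part of these markers in the differences of the mitosis genes was not tested.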

How the data were processed

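RNA was extracted with RNeasy and made into libraries with a KAPA stranded mRNA kit, per the labels' protocols. The submitters' processing notes name FastQC, STAR 2.7.1a and the mm10 build. Which program counted the reads, how it handled strand and which annotation it used is not given in the sources used here. The authors deposited 1 table of raw counts per gene for all 26 libraries, with Ensembl identifiers, of which 55230 of 55471 matched GENCODE M21 (54573 with the same version), and every column was tied to 1 library by its name.

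From these counts, filterByExpr kept 18412 genes, libraries were scaled with TMM, and edgeR 4.0.16 (R 4.3.3) fitted 1 mean for each of the 9 groups in a robust quasi-likelihood model with 17 residual degrees of freedom and a common biological coefficient of variation of 0.0495. The 22 comparisons are contrasts of that fit, and a gene was called at a Benjamini-Hochberg adjusted p under 0.05 over all genes tested. Errors of fold changes are standard errors from the fit. CPM values use the TMM-scaled library sizes. The fit was also run on data simulated from the WT day 0 profile, with changes set in alphaKO at day 4 alone. These data change far more widely, so that run does not gauge errors here. Alternatives were DESeq2 1.42.0, RLE size factors, other count filters, a replicate block, a fit of the compared groups alone, scaling on genes outside chromosomes 1, 14 and Y, and leaving out each library. Tables and figures were made with pandas 2.3.3 and matplotlib 3.10.9 under Python 3.11.15, and limma 3.58.1 was loaded with edgeR.

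All 40 genes could be named. Values of every library were given for 15 genes spread over the roles and, in each comparison of a knockout line with WT, for the genes with the largest rise and fall. Up to 3 of the largest changes in each direction and the called genes against the majority could be named in each comparison. Not all of these are named, mainly in the comparisons between days. The 40 genes and the 11 lists of related genes and markers were chosen with earlier results of these data known.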

Additional observations from a re-analysis of the deposited data

Results flagged for a closer look

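The change from day 0 differed between a knockout line and WT for 27 of the 40 genes at day 2 and 38 at day 4 in alphaKO, and for 27 at day 2 and 38 at day 4 in fullKO, by edgeR's quasi-likelihood test of the difference itself. Of all genes tested, 32.1% at day 2 and 44% at day 4 were called so in alphaKO, and 28.8% and 35.1% in fullKO. Median differences in change were 0.21 and 0.72 in alphaKO at these days and 0.28 and 0.42 in fullKO. The 2 knockout lines also differed from each other in 21 genes at day 0, 27 at day 2 and 21 at day 4 (29.2%, 25.4% and 32.9% of all genes). Most of these were lower in alphaKO than in fullKO at days 0 and 2 (19 and 26 genes) and higher at day 4 (19 genes). Whether that reversal between days exceeds error was not tested as a contrast. No group had the 4 or more libraries needed to ask whether 1 of them stood apart.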

How the results depend on the processing

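Of 754 alternative counts of called genes over 22 comparisons, 746 kept their direction and stayed within 1.5 times the reported count. The exceptions were all at day 0. In alphaKO against WT the split of 9 higher and 8 lower tipped to lower in 5 settings: 18 called with RLE size factors, 19 with at least 10 counts in every library, 17 with DESeq2, 18 without WT replicate 3 and 17 without alphaKO replicate 1. Leaving out 1 library gave 12 to 18 called genes there, 7 to 17 in fullKO against WT (7 without fullKO replicate 1) and 11 to 21 in alphaKO against fullKO (11 without fullKO replicate 1 and 12 without replicate 2). At day 4 the counts against WT stayed at 39 in alphaKO and between 37 and 38 in fullKO when 1 library was left out. The cause of the day 0 shifts was not tested. Medians of the set moved by at most 0.0655 on the log2 scale. Of 396 named gene and comparison pairs under all alternatives, 13288 values stayed on their side of the threshold, 135 lost a call, 41 gained one and none reversed. The replicate numbers did not pair libraries across groups (100 same-numbered pairs correlated between -0.044 and 0.049). A fit with the replicate block called 16 genes in alphaKO and 15 in fullKO against WT at day 0, 32 and 36 at day 2, and 39 and 38 at day 4. Depth did not keep any of the 40 genes out of the test; 3 libraries a group, and 2 for fullKO at day 0, limit what differences could be called.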
